A study of Mus musculus with 4 samples.

Results

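The genes described here encode the machinery of oxidative phosphorylation in the embryonic mouse pancreas. They were chosen by symbol, as every gene in both count tables that matched the name patterns for subunits of respiratory complexes I to IV, for ATP synthase, or for protein-coding genes of the mitochondrial genome (prefix mt-). The patterns found 89 of 27998 genes, of which 76 lie in the nuclear genome and 13 in the mitochondrial genome. The nuclear set held 35 complex I genes, 4 complex II genes, 8 complex III genes, 12 complex IV genes and 17 complex V genes. Ndufa4, named after complex I but known as a complex IV subunit, was counted with complex IV. The name patterns use no measured value.

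Oxidative phosphorylation takes place in the inner mitochondrial membrane. Complexes I and II pass electrons from NADH and succinate to ubiquinone, complex III passes them to cytochrome c, and complex IV hands them to oxygen. Complexes I, III and IV pump protons as they work, and complex V, the ATP synthase, uses the proton gradient to make ATP. Most subunits are imported from the cytosol, whereas the core subunits with the mt- prefix are transcribed and translated inside the organelle. Complex II alone has no mitochondrially encoded subunit. In the pancreas, acinar cells spend ATP on making and packing digestive enzymes, and in mature beta cells mitochondrial ATP couples glucose to insulin release.

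The study profiled single cells of embryonic pancreas at embryonic day 15.5 by droplet sequencing on the 10x Genomics platform. Cells of the OGT KO library came from PdxCre;OGTflox/flox;CAG GFP embryos, in which Cre driven by a pancreatic Pdx promoter acts on the floxed Ogt gene, and were sorted on GFP. Cells of the control library came from OGTflox/flox embryos, which carry the same floxed alleles and are called WT in the sample labels, and were sorted on E-cadherin according to the design text, while the sample labels name a GFP sort for both. Each genotype was 1 library sequenced in 2 runs, the number of pooled embryos is not given, and genotype and sort cannot be told apart. No difference between the genotypes therefore has a replicate check, no p-value is given, and all intervals are exact 95% intervals that cover counting error only.

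The OGT KO library held 617 barcodes with 11064540 UMIs (unique molecular identifiers, 1 for each captured transcript) and the control library 941 barcodes with 11973979 UMIs, and the libraries shared 0 barcodes. The median barcode held 15367 UMIs in OGT KO and 10756 UMIs in control. Cells were grouped without using the 89 genes, and groups were named from marker genes. The OGT KO and control libraries held 114 and 60 acinar-like cells, 97 and 41 trunk/ductal-like cells, 45 and 23 endocrine-like cells, and 46 and 646 leukocyte-like cells. Lymphoid-like (31), mesenchyme-like (132) and mesothelium-like (66) cells, and the 67 cells of an unnamed cluster 12 led by Cym, Spp2 and Serpina1a, were frequent enough to measure in OGT KO alone. Unnamed cluster 9, led by globin genes (92 cells), and unnamed cluster 10, led by class II histocompatibility genes (69 cells), were measured in control alone. Although the labels call the sorted cells pancreatic epithelium, leukocyte-like cells were the largest class of the control library.

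Ogt, the targeted gene, encodes O-GlcNAc transferase. Its level, in UMIs scaled to a total of 1000000 UMIs in the class (CPM, the unit of all levels here), was 39.9 CPM in OGT KO acinar-like cells and 40.1 CPM in control acinar-like cells, a ratio of 0.995 (0.718 to 1.40). In trunk/ductal-like cells it stood at 41.5 CPM in OGT KO and 93.2 CPM in control. In endocrine-like cells the levels were 32.0 CPM in OGT KO (24 UMIs) and 106 CPM in control (21 UMIs). In leukocyte-like cells, which are not pancreatic epithelium, they were 41.8 CPM in OGT KO and 65.0 CPM in control (0.642, 0.426 to 0.935). The targeted transcript was thus lower in OGT KO in trunk/ductal-like, endocrine-like and leukocyte-like cells, and the acinar-like cells of the library labelled OGT KO did not show it. UMIs over the whole gene do not separate a transcript that lacks a deleted exon from an intact one.

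Epithelial cells held the highest levels of nuclear subunit transcripts in both libraries. Among OGT KO cells the 76 nuclear genes summed to 37487 CPM in trunk/ductal-like cells (37211 to 37765), 37313 in acinar-like cells (37099 to 37527) and 37215 in endocrine-like cells (36780 to 37654). These 3 intervals overlapped. Below them came cluster 12 at 35177, lymphoid-like cells at 33206, mesothelium-like cells at 32916, leukocyte-like cells at 32005 and mesenchyme-like cells at 30659 CPM. The lymphoid-like and mesothelium-like intervals overlapped (32757 to 33659 and 32573 to 33263), and all other neighbours in this order were separated by more than counting error. In control the order was acinar-like (34772), trunk/ductal-like (33399), endocrine-like (29920), cluster 9 (29752), cluster 10 (28705) and leukocyte-like cells (27377 CPM). Endocrine-like cells of control (29163 to 30691) and cluster 9 (29474 to 30031) overlapped.

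Between the highest and the lowest named class, the 13 mt- genes varied by 1.72-fold in OGT KO and 1.18-fold in control, and the nuclear genes by 1.22-fold and 1.27-fold. In OGT KO they summed to 67491 CPM in cluster 12, 41694 in trunk/ductal-like cells, 41670 in endocrine-like cells and 36477 in acinar-like cells. They summed to 32064 in mesothelium-like cells, 30312 in mesenchyme-like cells, 28823 in lymphoid-like cells and 24175 CPM in leukocyte-like cells of the same library. In control they summed to 38112 in acinar-like cells, 35058 in endocrine-like cells, 34740 in trunk/ductal-like cells, 32224 in cluster 9, 32219 in leukocyte-like cells and 26985 CPM in cluster 10. The control order rested on barcodes with over 10% mt- UMIs: without them, acinar-like cells stood at 29623 CPM, below trunk/ductal-like (30944), leukocyte-like (32168) and endocrine-like cells (35058). In OGT KO, acinar-like cells without such barcodes stood at 29162 CPM, and cluster 12 at 47505 CPM, still the highest class. Cluster 12 carried 1.92 mt- UMIs for each nuclear subunit UMI (1.89 to 1.94), against 1.11 in trunk/ductal-like, 1.12 in endocrine-like and 0.978 in acinar-like cells of OGT KO. The lowest value was 0.755, in OGT KO leukocyte-like cells, against 1.18 in control leukocyte-like cells.

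**Figure D1:**
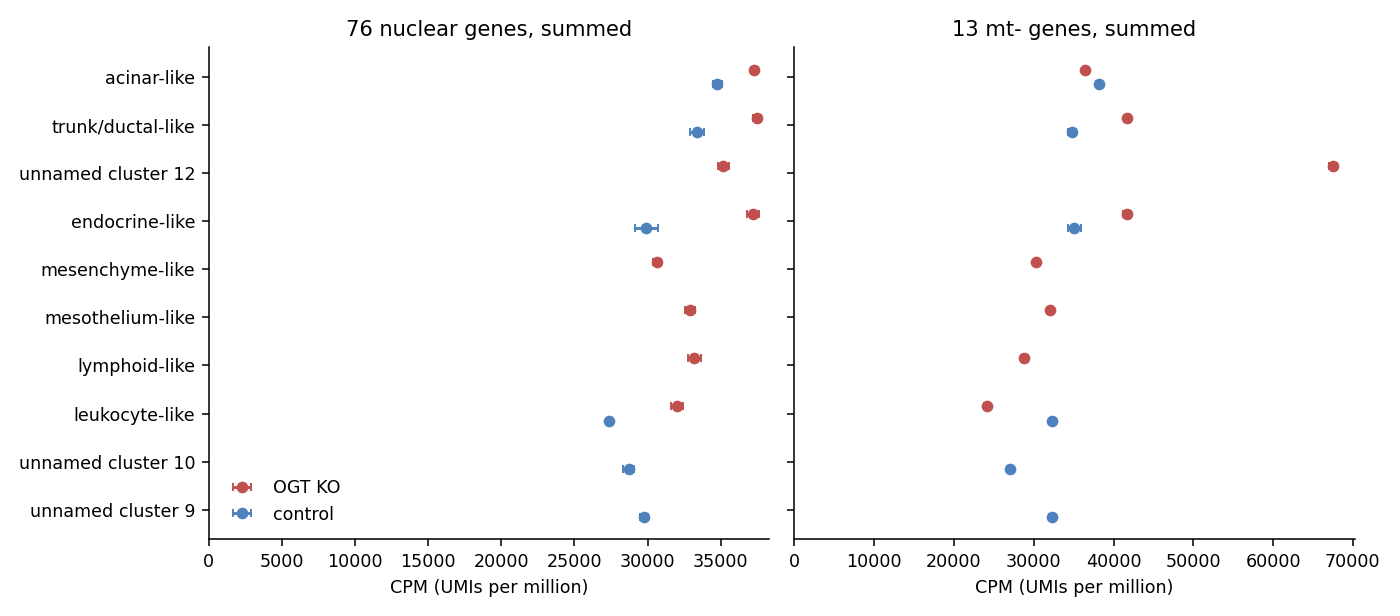
Summed level of the 76 nuclear genes (left) and of the 13 mt- genes (right) in CPM, by class, in OGT KO (red) and control (blue); points are 1 library each and bars are exact 95% counting intervals. Nuclear levels were higher in OGT KO in all 4 classes held by both libraries, whereas mt- levels were higher in OGT KO in 2 of them and lower in 2, and cluster 12 stood apart at 67491 mt- CPM. In all 4 shared classes the median cell also held more UMIs in OGT KO.

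The division of nuclear subunit UMIs between the complexes differed between classes by a few percentage points at most. Complex I genes held 28.2% of nuclear subunit UMIs in OGT KO acinar-like cells and 28.3% in control acinar-like cells, and at least 27.7% in all other classes measured. Complex V genes held 31.8% and 32.6% in acinar-like cells of OGT KO and control, and complex IV genes 27.2% and 26.0%. Complex II genes held the least, between 1.81% in OGT KO acinar-like cells and 2.65% in control leukocyte-like cells. Their share was larger in leukocyte-like than in acinar-like cells in OGT KO (2.21% and 1.81%) and in control (2.65% and 2.09%). Over all barcodes the leading complex IV genes were Cox4i1, its largest nuclear subunit (1531 CPM in OGT KO and 1349 in control), and Cox7c, a small one (1145 and 835). Atp5b, the catalytic beta subunit of ATP synthase, stood at 1072 CPM in OGT KO and 841 in control. Uqcrh and Uqcrb led complex III at 770 and 684 CPM in OGT KO, against 548 and 592 in control. Ndufa2 and Ndufa13, accessory subunits of complex I, stood at 542 and 541 CPM in OGT KO, against 478 and 466 in control. Sdhb, the iron-sulfur subunit of complex II, and Sdhd, a membrane anchor, led that complex at only 253 and 152 CPM in OGT KO, against 281 and 172 in control. UMIs were not scaled by transcript length, so an order between genes is an order of captured molecules.

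The mitochondrial genome is transcribed from both strands as long precursors that are cut into shorter transcripts. The mt- genes overlap in places, which bears on how their UMIs can be read. The 3′ end of mt-Atp8 and the 5′ end of mt-Atp6, which encode the membrane subunits of ATP synthase, share 43 bases on the plus strand at chrM:7927-7969 of mm10. They are shown here because UMIs from this stretch cannot be given to 1 of the genes. The capitals mark the mt-Atp6 start codon.
mt-Atp8/mt-Atp6 overlap: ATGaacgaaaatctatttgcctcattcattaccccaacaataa
The genes mt-Nd4l and mt-Nd4, both for complex I, share 7 bases in the same way. The values of mt-Atp8 (204 bases long) and mt-Nd4l (297 bases long) are uncertain at least to that extent. Counts per gene do not show whether the genes of such a pair lie on the same transcript or on separate ones. mt-Nd6, a complex I gene of 519 bases on the minus strand (chrM:13552-14070), overlaps the end of mt-Nd5 on the plus strand (chrM:11742-13565). How strand was treated in counting is not given in the sources used here.

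Mt- UMIs had nearly the same make-up in every class, with differences of a few percentage points. mt-Atp6 supplied 24.1% of mt- UMIs in acinar-like cells of OGT KO and 24.4% in those of control, and between 20.2% (OGT KO mesenchyme-like) and 25.1% (OGT KO leukocyte-like and control cluster 10) elsewhere among the classes. mt-Co3, a core subunit of complex IV, supplied 18.4% in acinar-like cells of both libraries and 23.4% in OGT KO mesenchyme-like cells. mt-Cytb, the catalytic cytochrome b of complex III, supplied 12.2% of mt- UMIs in acinar-like cells of OGT KO and 12.3% in those of control. In leukocyte-like cells it supplied 9.81% in OGT KO and 9.53% in control, so the epithelial class was above the leukocyte class in both libraries. Over all barcodes mt-Cytb supplied 12.1% in OGT KO and 10.1% in control, beside a control library made mostly of leukocyte-like cells.

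mt-Co1, the catalytic subunit of complex IV, supplied a smaller share of mt- UMIs in OGT KO in all 4 classes held by both libraries. Its share was 12.4% in OGT KO and 13.01% in control acinar-like cells, and 12.4% and 14.8% in trunk/ductal-like cells. It was 13.4% in OGT KO and 16.4% in control endocrine-like cells, and 14.4% and 14.9% in leukocyte-like cells. mt-Nd6 was nearly absent everywhere, with 23 UMIs in OGT KO and 19 UMIs in control acinar-like cells, where mt-Nd1 of the other strand had 12000 and 5172 UMIs.

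**Figure D2:**
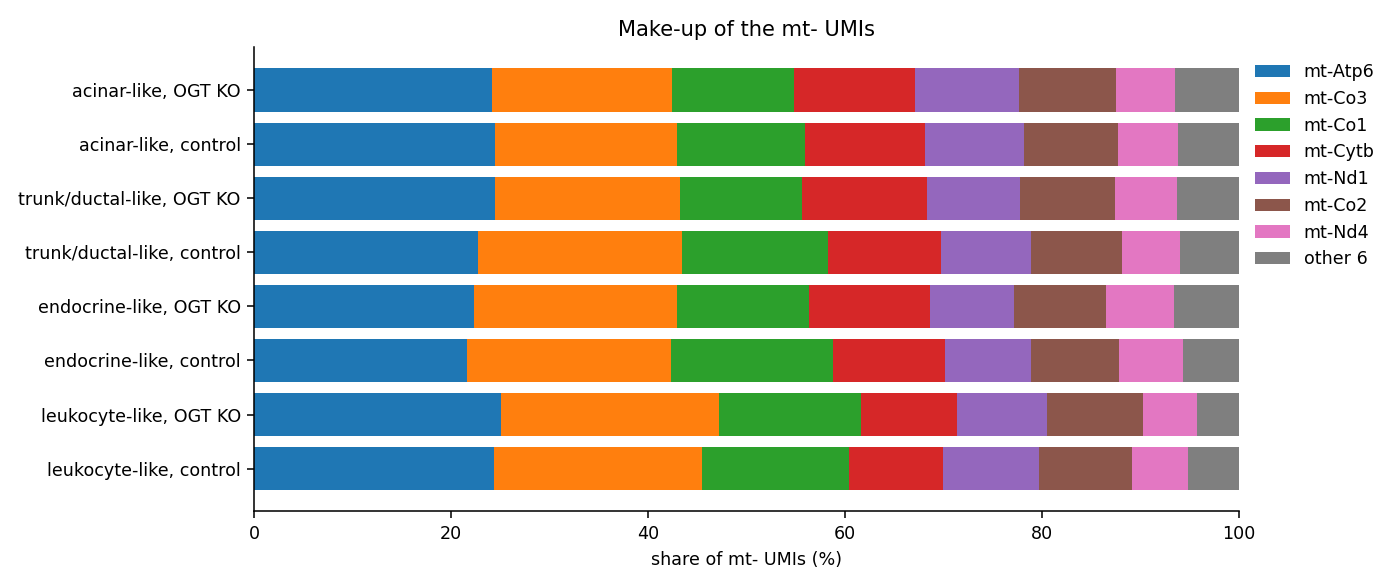
Share of mt- UMIs (%) supplied by each mt- gene in the 4 classes held by both libraries; each bar is 1 class of 1 library, OGT KO above control, and grey joins the remaining genes. mt-Atp6 and mt-Co3 together were the largest part of each bar, and the mt-Cytb part was wider in the 3 epithelial classes than in leukocyte-like cells of the same library.

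Barcodes with a high mt- share were almost confined to epithelial classes in both libraries. More than 10% of UMIs were mt- in 54 of 323 epithelial barcodes of OGT KO (16.7%, 12.8 to 21.2), counting acinar-like, trunk/ductal-like and endocrine-like cells and cluster 12, and in 15 of 124 epithelial barcodes of control (12.1%, 6.93 to 19.2). Elsewhere this held for 2 of 294 barcodes of OGT KO (0.680%, 0.0825 to 2.44) and 1 of 817 barcodes of control (0.122%, 0.00310 to 0.680). The intervals of the epithelial shares of OGT KO and control overlapped. Cluster 12 had the largest share, 23 of 67 (34.3%), followed by control acinar-like cells with 12 of 60 and OGT KO acinar-like cells with 20 of 114 (17.5%). This unnamed cluster, with 0 control cells, thus supplied 23 of the 54 epithelial barcodes of OGT KO and has no counterpart in the control share.

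High-mt barcodes were shallow and poor in other transcripts. In OGT KO acinar-like cells the 20 barcodes over 10% held a median of 7041 UMIs, and the other 94 held 31510 UMIs. In control acinar-like cells the 12 barcodes over 10% held a median of 4952 UMIs, and the other 48 held 24226 UMIs. With mt- UMIs left out of the total, the nuclear subunit genes stood at 36198 CPM in the high-mt barcodes of OGT KO acinar-like cells (35154 to 37266) and at 38835 in the others (38608 to 39063). In control acinar-like cells they stood at 28994 CPM in the high-mt barcodes (27600 to 30441) and at 36473 in the others (36138 to 36811). The nuclear RNA Malat1 stood at 13087 CPM of the non-mt total in high-mt barcodes of OGT KO acinar-like cells and at 4383 in the others, and at 15909 and 4480 in control. The nuclear subunit transcripts thus did not share the mt- increase of these barcodes. Outside the high-mt barcodes the acinar-like cells of the libraries were alike, at 29162 mt- CPM in OGT KO and 29623 in control.

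**Figure D3:**
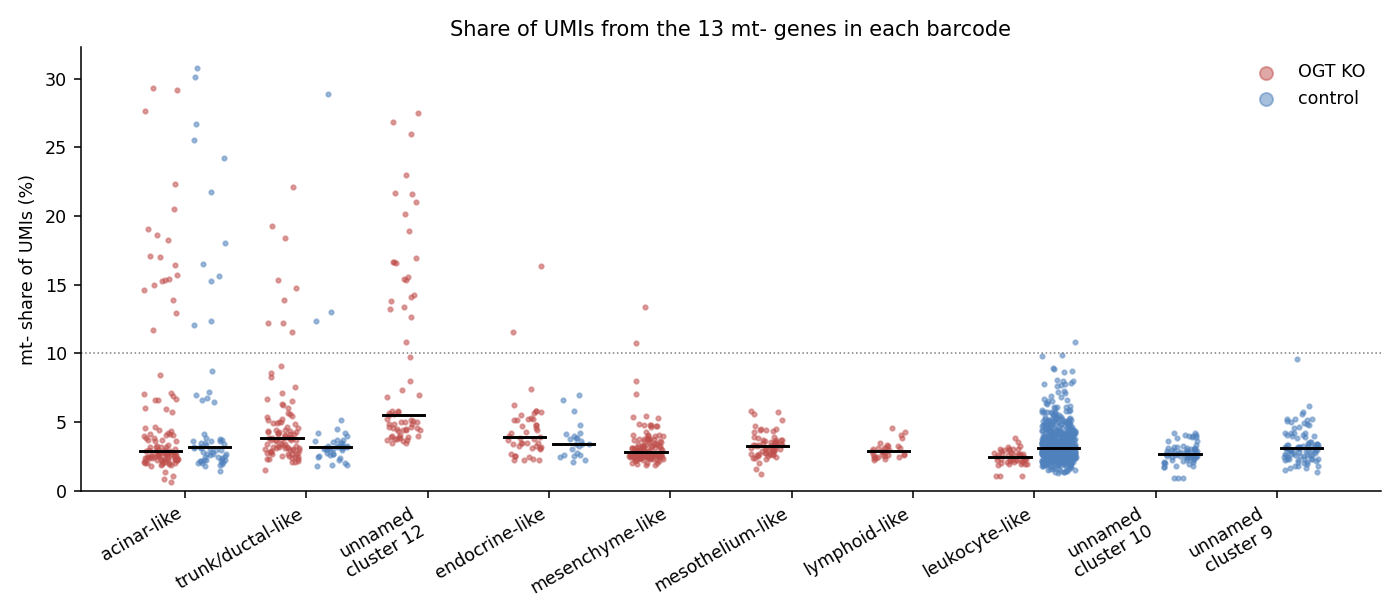
Share of UMIs from the 13 mt- genes (%) in each barcode, by class, in OGT KO (red) and control (blue); bars are medians and the dotted line is at 10%. Barcodes above the line lay mostly in acinar-like, trunk/ductal-like and cluster 12 cells, and cluster 12 had the highest median, 5.49%.

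Within acinar-like cells, nuclear subunit transcripts were slightly higher in OGT KO and mt- transcripts slightly lower. The nuclear genes summed to 37313 CPM in OGT KO and 34772 in control, a ratio of 1.07 (1.06 to 1.08). The mt- genes summed to 36477 CPM in OGT KO and 38112 in control, a ratio of 0.957 (0.947 to 0.967). Among 87 members that reached 50 UMIs in the libraries together, 0 were at least 1.5-fold higher and 0 at least 1.5-fold lower in OGT KO, against 11.1% of all genes higher and 8.73% lower. Atp5s and mt-Nd6 fell below 50 UMIs. The median log2 ratio was 0.08 over the nuclear members, -0.04 over the mt- members and 0.04 over all genes. Without the 5 cells of each library with the highest mt- level, the mt- ratio was 1.01.

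Among the nuclear complexes of acinar-like cells, complex IV had the largest ratio, with 10133 CPM in OGT KO and 9031 CPM in control (1.12, 1.10 to 1.15). Complex III (1.08, 1.04 to 1.11), complex I (1.07, 1.05 to 1.09) and complex V (1.04, 1.02 to 1.06) were closer to 1. Complex II was below 1, at 677 CPM in OGT KO and 726 in control (0.933, 0.865 to 1.01). Cox4i1 stood at 1479 CPM in OGT KO and 1139 in control (1.30, 1.23 to 1.38). Ndufa1, a small membrane subunit of complex I encoded on the X chromosome, had the largest ratio (1.32, 1.07 to 1.63), at 118 and 89.2 CPM. Ndufs4, a complex I subunit whose loss causes Leigh syndrome, had a ratio of 1.28, Ndufb4 of complex I 1.26, and Atp5o, the stalk subunit of ATP synthase, 1.26 (1.16 to 1.37).

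The lowest acinar ratio was that of Ndufs8, an iron-sulfur subunit of complex I, with 143 CPM in OGT KO and 172 in control (0.830, 0.707 to 0.977). Uqcrc1, a core protein of complex III, had a ratio of 0.862, Atp5g3 of the ATP synthase c ring 0.888, Sdha, the flavoprotein of complex II, 0.895 (0.749 to 1.07), and Atp5c1, the rotating gamma subunit, 0.898. mt-Co1 was at 4522 CPM in OGT KO and 4957 in control (0.912, 0.886 to 0.939), whereas mt-Nd5 was at 320 and 280 (1.141, 1.01 to 1.29). OGT KO acinar-like cells lay mainly in cluster 5, which held 110 OGT KO cells and 1 control cell, and control ones in cluster 14, which held 59 control cells and 4 OGT KO cells. Serpina6, Cpa1 and Vtn were among the leading genes of cluster 5, and Prss1, Prss3 and Try10 among those of cluster 14. The class's own 17 acinar markers summed to 43744 CPM in OGT KO and 59137 in control acinar-like cells. Other cell types' markers moved with the same comparison. The 16 leukocyte markers summed to 542 CPM in OGT KO and 4016 in control acinar-like cells, with 15 of the 15 measured at least 1.5-fold lower, and 15 mesenchyme markers summed to 1002 and 285, with 10 of the 11 measured higher in OGT KO and Pdgfra at 0 in control. Their part in the result was not tested.

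In trunk/ductal-like cells both kinds of gene were higher in OGT KO. The nuclear members summed to 37487 CPM in OGT KO and 33399 in control (1.12, 1.10 to 1.141), and the mt- members to 41694 and 34740 (1.20, 1.18 to 1.22). At least 1.5-fold higher stood 5 of the 87 members measured, against 15.2% of all genes, and 0 stood lower, against 9.65%. mt-Atp8 stood at 213 CPM in OGT KO and 113 in control (1.88, 1.44 to 2.50). mt-Nd5, a proton-pumping subunit of complex I, stood at 416 CPM in OGT KO and 227 in control (1.84, 1.52 to 2.24), and mt-Nd4l at 203 and 133 (1.52, 1.18 to 1.98). Of the nuclear genes, Ndufa11 stood at 357 CPM in OGT KO and 223 in control (1.60, 1.32 to 1.96), and Ndufs7, an iron-sulfur subunit of complex I, at 315 and 197 (1.59, 1.30 to 1.97).

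All 12 mt- genes measured in trunk/ductal-like cells had a ratio above 1, from 1.01 for mt-Co1 to 1.88 for mt-Atp8. mt-Cytb stood at 5288 CPM in OGT KO and 4004 in control (1.32, 1.26 to 1.38), and mt-Nd4 of complex I at 2644 and 2025 (1.31, 1.22 to 1.40). Of the 75 nuclear members measured, 58 had a ratio above 1, beside 55.8% of all genes. At the low end stood Cox7a2l, a factor of respiratory supercomplexes, with 382 CPM in OGT KO and 499 in control (0.766, 0.665 to 0.884). The next lowest were Ndufv3 (0.790), Ndufa3 (0.841) and Ndufa7 (0.854) of complex I and Atp5d of the ATP synthase (0.846). The class rested on how cells were grouped. When marked doublets were removed and cells were clustered again, the class held 42 OGT KO and 40 control cells and the mt- ratio was below 1, at 0.931. With barcodes over 10% mt- or under 500 genes removed, the class held 42 OGT KO and 36 control cells and the mt- ratio was 1.01. The nuclear ratio stayed above 1 in both, at 1.08 and 1.07. The class's own 17 trunk/ductal markers summed to 7459 CPM in OGT KO and 9760 in control trunk/ductal-like cells. Leukocyte markers summed to 527 CPM in OGT KO and 4196 in control trunk/ductal-like cells (14 of the 14 measured lower), and acinar markers to 8437 and 4905. Mesenchyme markers summed to 1455 CPM in OGT KO and 802 in control, where Pdgfra and Col1a2 were at 0. The part of these in the result was not tested.

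Endocrine-like cells showed the widest nuclear difference. The nuclear members summed to 37215 CPM in 45 OGT KO cells and 29920 in 23 control cells (1.24, 1.21 to 1.28), and the mt- members to 41670 and 35058 (1.19, 1.16 to 1.22). At least 1.5-fold higher stood 17 of 87 members, against 20.3% of all genes, and 1 stood lower, against 11% of all genes. The share higher was close to that of all genes, and the share lower was smaller. The median log2 ratio was 0.33 over the 75 nuclear members measured and 0.09 over all genes, and 62 of the 75 lay above 1, beside 56.4% of all genes. TMM scaling, which moved all ratios of this class by 0.12 on the log2 scale, gave 1.35 for the nuclear sum and 1.29 for the mt- sum, with 27 members higher and 0 lower. It moved the other genes by the same amount, and their share past the fold was not computed under it.

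By summed level, complex IV had the largest endocrine ratio (1.31, 1.24 to 1.38), then complex III (1.28, 1.17 to 1.39), complex I (1.25, 1.19 to 1.32), complex V (1.18, 1.12 to 1.24) and complex II (1.15, 0.942 to 1.40), with overlapping intervals between neighbours. Of single genes, Ndufa5 of complex I had the largest ratio. It stood at 333 CPM in OGT KO (250 UMIs) and 151 in control (30 UMIs), a ratio of 2.20 (1.502 to 3.33). Ndufa1 stood at 346 CPM in OGT KO and 187 in control (1.85, 1.31 to 2.69), and Ndufb3 at 176 and 95.9 (1.83, 1.13 to 3.14). Cox5b, a nuclear subunit of complex IV, stood at 987 CPM in OGT KO and 535 in control (1.84, 1.503 to 2.28). Atp5k, a membrane subunit of ATP synthase, stood at 498 CPM in OGT KO and 283 in control (1.76, 1.33 to 2.38). Past 1.5-fold higher were 7 of 35 complex I genes and 3 of 8 complex III genes, beside 20.3% of all genes, so the complex I share was close to that of all genes. Among the complex III genes was Uqcrh, the hinge protein, at 919 and 575 (1.60, 1.31 to 1.97).

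Among mt- genes of endocrine-like cells, mt-Nd3 of complex I stood at 746 CPM in OGT KO and 469 in control (1.59, 1.27 to 2.00), and mt-Nd2 at 1380 and 898 (1.54, 1.31 to 1.81). mt-Co1 was close to level, at 5575 CPM in OGT KO and 5764 in control (0.967, 0.906 to 1.03).

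The single endocrine member at least 1.5-fold lower was Ndufa3 of complex I, with 230 CPM in OGT KO and 363 in control (0.634, 0.479 to 0.847). Sdhc, a membrane anchor of complex II, had a ratio of 0.712 (0.472 to 1.10), with 119 CPM in OGT KO and 167 in control. Ndufs8 (0.761, 0.510 to 1.16), Ndufa7 (0.844, 0.669 to 1.07) and mt-Atp8 (0.867, 0.563 to 1.37) followed, and these 3 intervals included 1. Depth and other transcripts differed alongside. The median cell held 16602 UMIs in OGT KO and 8026 in control, and in cells with at most 10% mt- UMIs Malat1 stood at 15470 CPM of the non-mt total in OGT KO and 32947 in control. Leukocyte markers summed to 570 CPM in OGT KO and 5416 in control endocrine-like cells, with 9 of the 9 measured lower in OGT KO, against 28411 CPM in control leukocyte-like cells. Mesenchyme markers summed to 1674 CPM in OGT KO and 262 in control, and acinar markers to 8438 and 4038. Their part in the result was not tested.

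Leukocyte-like cells were the 1 shared class in which nuclear and mt- genes stood clearly apart. The nuclear members summed to 32005 CPM in OGT KO and 27377 in control (1.17, 1.15 to 1.19), whereas the mt- members summed to 24175 and 32219 (0.750, 0.739 to 0.762). All 13 mt- genes had a ratio below 1, whereas 48.5% of all genes had a ratio above 1. At least 1.5-fold higher stood 1 of 88 members, Ndufs4 at 179 and 113 CPM (1.59, 1.30 to 1.92), against 13.6% of all genes. At least 1.5-fold lower stood 4, all of them mt- genes, against 21.6% of all genes. They were mt-Atp8 at 44.7 CPM in OGT KO and 97.5 in control (0.458, 0.309 to 0.656), mt-Nd4l at 59.1 and 104 (0.566, 0.403 to 0.776), mt-Nd2 at 488 and 848 (0.576, 0.515 to 0.642), and mt-Nd6 with 2 UMIs in OGT KO and 57 in control (0.379, 0.0448 to 1.43). TMM scaling moved all ratios of this class by -0.15 on the log2 scale, to 1.05 for the nuclear sum and 0.676 for the mt- sum, with 0 members higher and 9 lower. The share of all genes past the fold was not computed under TMM.

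mt-Nd1 of complex I stood at 2188 CPM in OGT KO and 3139 in control leukocyte-like cells (0.697, 0.661 to 0.734). mt-Co3 was the mt- gene nearest to 1, at 5358 and 6803 CPM (0.788, 0.762 to 0.814).

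On the nuclear side, Uqcr10 of complex III stood at 557 CPM in OGT KO and 383 in control leukocyte-like cells (1.45, 1.30 to 1.62). Ndufb4 had a ratio of 1.45, Atp5o 1.45 and Cox7a2, a small complex IV subunit, 1.42. The cells compared were of different kinds. Granulocyte and mast cell markers summed to 15739 CPM in OGT KO and 379 in control leukocyte-like cells. Of the 46 OGT KO cells, 25 lay in cluster 2, among whose leading genes were S100a8 and S100a9, and 13 in cluster 17, led by Cpa3 and Cma1. Control cells lay mostly in clusters 0, 3, 6, 7 and 8, which held 93 to 138 control cells and 0 to 4 OGT KO cells each. Within cluster 2 the nuclear ratio was 1.23 (1.20 to 1.26) and the mt- ratio 0.812 (0.792 to 0.832), and there too the granulocyte and mast cell markers summed to 23918 CPM in OGT KO and 699 in control. In cluster 2, 13 of 74 nuclear members (17.6%) were at least 1.5-fold higher, against 12.2% of all genes. At least 1.5-fold lower were 3 of 12 mt- genes (25%), against 17.7% of all genes. Genotype, sort and leukocyte type cannot be told apart here.

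**Figure D4:**
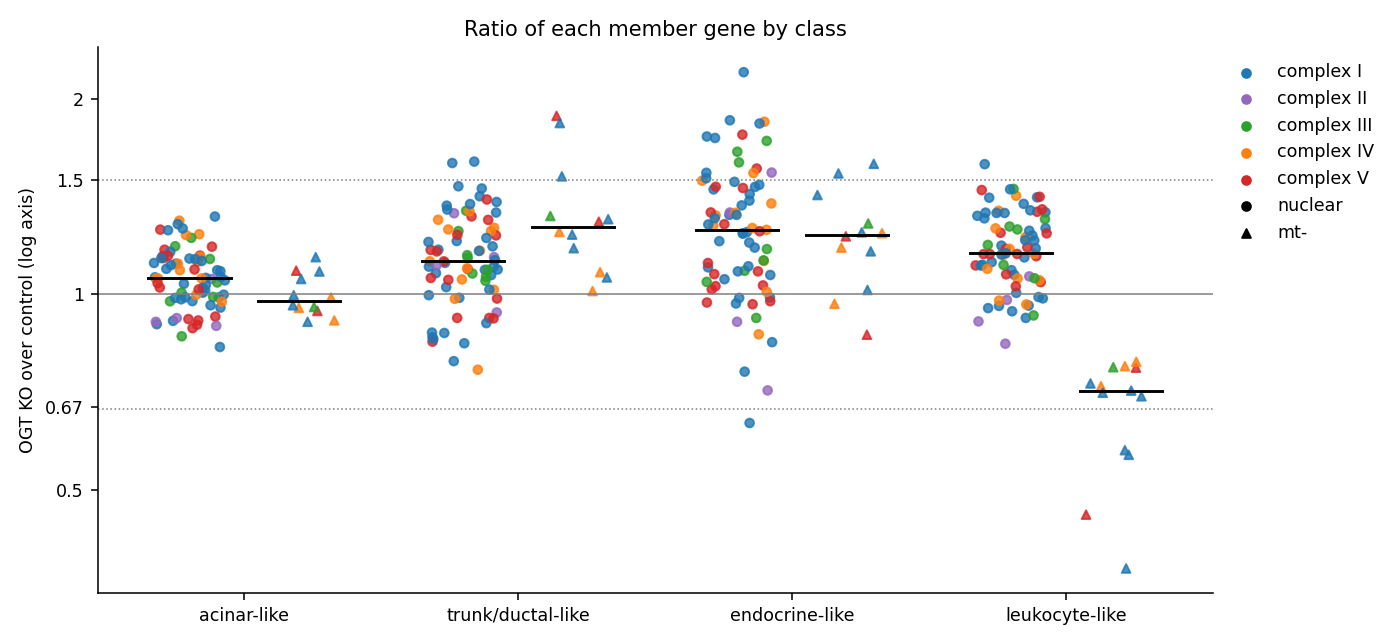
Ratio of OGT KO over control (log axis) for each member that reached 50 UMIs in the libraries together, in the 4 classes held by both; circles are nuclear genes, triangles mt- genes, colours complexes, black bars medians, and dotted lines 1.5-fold. The mt- triangles lie below 1 in leukocyte-like cells and at or above 1 in trunk/ductal-like cells, and acinar-like cells have no member past a dotted line.

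A few subunits differed between cell classes by at least 1.5-fold in the same direction in both libraries. Between endocrine-like and acinar-like cells, 3 members were higher and 3 lower in endocrine-like cells of both libraries, of 87 measured, beside 18.6% and 15.5% of all genes, so members past that fold were rarer than genes in general. The nuclear members with the widest range over classes in OGT KO were Ndufa1 (2.94-fold between the highest and the lowest class), Atp5l (2.17), Cox5a (2.16), Cox7a2l (1.98), Ndufa3 (1.96) and Ndufs4 (1.90). Classes had been made without these genes. Over the other nuclear members measured the range was at most 1.88-fold. The mt- genes ranged more widely in OGT KO, among them mt-Atp8 with 314 CPM in cluster 12, 213 in trunk/ductal-like and 44.7 in leukocyte-like cells.

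Atp5l, the g subunit at the ATP synthase dimer interface, marked endocrine-like cells. It stood at 1574 CPM in endocrine-like, 793 in acinar-like, 892 in trunk/ductal-like and 902 in leukocyte-like cells of OGT KO. In control it stood at 1408 CPM in endocrine-like, 726 in acinar-like, 793 in trunk/ductal-like and 781 in leukocyte-like cells. Endocrine-like over acinar-like cells gave 1.99 in OGT KO and 1.94 in control, and endocrine-like over trunk/ductal-like cells gave 1.76 and 1.78, where 8.55% of all genes were at least 1.5-fold higher in both libraries and 11.8% lower. Endocrine-like over leukocyte-like cells gave 1.75 and 1.80, where 22.2% were higher in both and 15.9% lower.

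Cox7a2l followed the same order, at 679 CPM in endocrine-like and 349 in acinar-like cells of OGT KO, and 782 and 320 in those of control. Cox5a, a nuclear subunit of complex IV, went the other way. It stood at 296 CPM in endocrine-like, 471 in acinar-like and 504.04 in trunk/ductal-like cells of OGT KO, and at 262 in endocrine-like, 471 in acinar-like and 400 in trunk/ductal-like cells of control. The mesenchyme-like (306, 280 to 334) and mesothelium-like (334, 300 to 371) cells of OGT KO were low in Cox5a as well. Their intervals overlapped that of endocrine-like cells of OGT KO (258 to 337), and lymphoid-like cells were highest at 638 CPM. Endocrine-like cells thus combined the highest Cox7a2l with a Cox5a level among the lowest, although both proteins belong to or assemble with complex IV. Atp5b (0.653 in OGT KO and 0.557 in control) and Ndufv2, an iron-sulfur subunit of complex I (0.666 and 0.661), were also lower in endocrine-like than in acinar-like cells.

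Ndufa1 was lowest in acinar-like cells of both libraries. Its endocrine-like to acinar-like ratio was 2.94 in OGT KO and 2.09 in control, and its acinar-like to leukocyte-like ratio 0.643 and 0.449. Acinar-like cells exceeded leukocyte-like cells by at least 1.5-fold in both libraries for 7 of 75 nuclear and 3 of 12 mt- members, beside 17.6% of all genes. Ndufa1 was the 1 member lower by that fold, beside 18.5%. Ndufa5 (1.74 in OGT KO and 2.37 in control), Atp5g1 (1.63 and 2.23), Cox7c (1.76 and 1.76) and Ndufb9 (1.52 and 2.23) were among the 7 nuclear members. Between trunk/ductal-like and acinar-like cells, 0 members were at least 1.5-fold apart in both libraries in either direction, beside 13.9% of all genes higher and 5.62% lower.

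**Figure D5:**
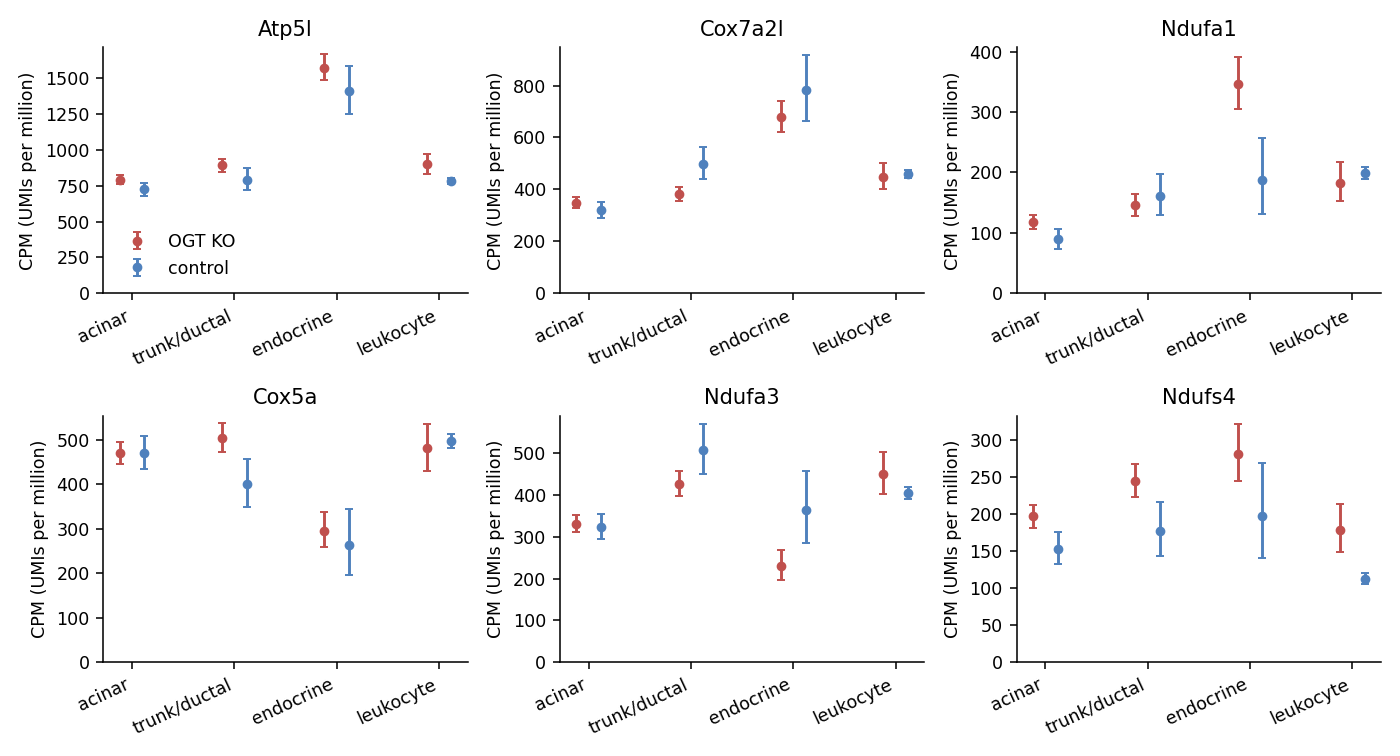
Level in CPM of the 6 nuclear members with the widest range over OGT KO classes, in the 4 classes held by both libraries; points are OGT KO (red) and control (blue) with exact 95% counting intervals. Atp5l and Cox7a2l peak and Cox5a is lowest in endocrine-like cells of both libraries, whereas Ndufa3 is lowest there in OGT KO only.

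The ring of ATP synthase is built from a c subunit that is encoded by 3 genes, Atp5g1, Atp5g2 and Atp5g3, whose mature proteins are identical and whose import sequences differ. In acinar-like cells Atp5g1 was the most frequent, with 43.3% of c subunit UMIs in OGT KO (42.1 to 44.5) and 45.1% in control (43.3 to 47.0). In trunk/ductal-like cells Atp5g2 was the most frequent, with 45.1% in OGT KO and 46.3% in control, and Atp5g1 held 34.5% and 35.7%. In leukocyte-like cells Atp5g1 held 36.4% in OGT KO and 32.6% in control. The summed c subunit level was 2024 CPM in OGT KO and 2127 in control acinar-like cells, and 1473 and 1322 in leukocyte-like cells. Atp5g3 stayed between 18.0% and 23.3% in the classes computed, which leave out clusters 9 and 10. Atp5g1 thus led the c subunit genes in acinar-like cells of both libraries, equalled Atp5g2 in mesenchyme-like cells of OGT KO (40.1% each), was level with it within counting error in mesothelium-like cells (40.4% and 40.7%), and came behind it in the other classes computed.

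Promoter sequences were available for 62 of the 76 nuclear members in RefSeq, as the 250 bases before and 50 bases after the first listed start of each gene (build GRCm38.p6). Regulators known to act on these genes include NRF1, GABPA of the ETS family and YY1. On either strand, the letters GCGCA and GCGC with 1 base of any kind between them, as read by NRF1, occurred in 16 of the 62 promoters (25.8%) and in 4.78% of 27025 mouse promoters of the same length. The letters CCGGAAG of the ETS family occurred in 15 (24.2%) and in 9.12% of all promoters, and AAGATGGC of YY1 in 8 (12.9%) and in 2.88%. At least 1 of the 3 was present in 34 (54.8%) and in 15.2% of all promoters. GC content was 57.7% in the members' promoters and 53.6% in all. A match is a description of the letters, not a site of binding or a cause.

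The windows of the class-dependent genes Atp5l, Cox7a2l and Cox5a are shown because these genes differed plainly between cell types. Those of the c subunit genes are shown because the most frequent of them was not the same in all classes, although the share of Atp5g3 varied little. Capitals mark NRF1 or ETS letters on either strand. All read 5′ to 3′ along the gene's strand. The windows lie at chr9:44920693-44920992 (Atp5l, minus strand), chr17:83514284-83514583 (Cox7a2l, minus), chr9:57520982-57521281 (Cox5a, plus), chr11:96075582-96075881 (Atp5g1, minus), chr15:102670998-102671297 (Atp5g2, minus) and chr2:73911277-73911576 (Atp5g3, minus).
Atp5l: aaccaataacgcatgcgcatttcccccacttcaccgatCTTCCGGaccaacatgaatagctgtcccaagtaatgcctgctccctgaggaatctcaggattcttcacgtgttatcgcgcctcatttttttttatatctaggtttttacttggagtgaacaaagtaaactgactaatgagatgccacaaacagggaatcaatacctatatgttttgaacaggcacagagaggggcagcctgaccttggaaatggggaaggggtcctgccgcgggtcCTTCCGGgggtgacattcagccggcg
Cox7a2l: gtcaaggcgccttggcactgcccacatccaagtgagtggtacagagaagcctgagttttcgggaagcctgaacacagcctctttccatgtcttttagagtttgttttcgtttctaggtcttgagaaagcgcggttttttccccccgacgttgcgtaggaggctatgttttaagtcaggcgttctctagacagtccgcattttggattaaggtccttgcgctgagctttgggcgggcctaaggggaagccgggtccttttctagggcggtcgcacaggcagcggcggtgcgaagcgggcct
Cox5a: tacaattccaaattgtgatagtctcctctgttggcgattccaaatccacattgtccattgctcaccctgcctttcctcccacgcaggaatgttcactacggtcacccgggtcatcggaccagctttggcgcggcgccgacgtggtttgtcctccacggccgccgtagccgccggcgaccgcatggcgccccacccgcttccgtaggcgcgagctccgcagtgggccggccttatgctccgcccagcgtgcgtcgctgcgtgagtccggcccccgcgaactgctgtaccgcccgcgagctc
Atp5g1: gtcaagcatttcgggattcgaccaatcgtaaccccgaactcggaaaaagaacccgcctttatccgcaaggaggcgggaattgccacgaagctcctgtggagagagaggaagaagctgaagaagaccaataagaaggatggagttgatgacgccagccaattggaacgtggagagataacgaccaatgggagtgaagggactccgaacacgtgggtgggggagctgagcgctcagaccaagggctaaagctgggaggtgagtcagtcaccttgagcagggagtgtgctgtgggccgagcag
Atp5g2: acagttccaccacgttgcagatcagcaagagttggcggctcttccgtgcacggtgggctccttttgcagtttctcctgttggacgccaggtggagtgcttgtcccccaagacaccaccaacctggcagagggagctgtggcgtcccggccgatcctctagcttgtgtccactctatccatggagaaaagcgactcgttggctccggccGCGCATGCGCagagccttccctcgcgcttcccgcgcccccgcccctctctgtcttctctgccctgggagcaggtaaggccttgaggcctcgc
Atp5g3: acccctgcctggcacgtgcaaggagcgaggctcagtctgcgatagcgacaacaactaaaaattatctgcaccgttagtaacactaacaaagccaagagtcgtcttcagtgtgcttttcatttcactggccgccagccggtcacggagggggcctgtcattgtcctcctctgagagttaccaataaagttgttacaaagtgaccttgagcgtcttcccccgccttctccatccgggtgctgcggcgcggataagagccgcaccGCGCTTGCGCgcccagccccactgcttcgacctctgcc
The Atp5l window held the ETS letters at 2 places, and the Atp5g2 and Atp5g3 windows each held the NRF1 letters at 1 place. None of the 3 motifs was found in the windows of Cox7a2l, Cox5a and Atp5g1, which says only that these letters are not in these windows. For Cox7a2l, Atp5g1 and Atp5g2 the listed start lies inside the gene span of the GENCODE annotation, so it is not the outermost start annotated there.

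Tissue-restricted versions of the subunits were measured at low levels. Cox6b2, known as a testis form of a complex IV subunit, was the most abundant of them in OGT KO, at 88.2 CPM in mesothelium-like and 73.7 CPM in mesenchyme-like cells. In trunk/ductal-like cells it stood at 38.9 CPM in OGT KO and 47.5 CPM in control, and in leukocyte-like cells at 27.4 and 13.2. Cox6a2, a heart and muscle form of a complex IV subunit, had 5 UMIs in all OGT KO barcodes and 6 in all control barcodes. Cox7a1, another muscle form, stood at 70.0 CPM in OGT KO and 62.4 in control acinar-like cells, and between 11.3 and 32.9 in all other classes measured in either library. Cox4i2, a form known from lung and low oxygen, stood at 11.2 CPM in OGT KO and 11.0 in control trunk/ductal-like cells and at 1.44 and 2.80 in leukocyte-like cells. Ndufa4l2, known as a hypoxia-induced relative of Ndufa4, stood at 16.4 CPM in mesenchyme-like and 16.9 in mesothelium-like cells of OGT KO and at or below 5.48 elsewhere, although in mesothelium-like cells its 18 UMIs came from 2 cells.

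Other genes of the organelle were followed by pathway, again as counts past 1.5-fold. Of 77 mitochondrial ribosome genes measured in acinar-like cells, 1 was higher in OGT KO (Mrpl22, 1.66) and 0 were lower. In trunk/ductal-like cells 21 of 76 were higher and 3 lower, in endocrine-like cells 19 of 61 were higher and 3 lower, and in leukocyte-like cells 6 of 77 were higher and 1 lower. Of all genes, 11.1% were higher and 8.73% lower in acinar-like, 15.2% and 9.65% in trunk/ductal-like, 20.3% and 11% in endocrine-like, and 13.6% and 21.6% in leukocyte-like cells, and the counts of the other pathway lists stand beside the same shares. The median log2 ratio of these genes was 0.10, 0.25, 0.20 and 0.24 in the 4 classes, above the all-gene medians of 0.04, 0.06, 0.09 and -0.02. These genes make the proteins of the ribosome that translates the mt- messages. In leukocyte-like cells their median lay above 0 while that of the mt- messages was -0.49.

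Assembly factors gave 4 higher and 4 lower of 43 measured in acinar-like cells, among them Atpaf2, which assembles the ATP synthase head, at 34.8 CPM in OGT KO and 14.1 in control (2.47, 1.51 to 4.25), and Timmdc1, which assembles complex I, at 10.9 and 26.0 (0.418, 0.253 to 0.689). They gave 7 higher and 0 lower of 34 in trunk/ductal-like cells, 3 higher and 1 lower of 16 in endocrine-like cells, and 6 higher and 4 lower of 47 in leukocyte-like cells. The endocrine-like count of higher genes and both acinar-like counts were close to the shares of all genes (20.3%, and 11.1% and 8.73%). Tfam, which packs and transcribes mitochondrial DNA, stood at 63.3 CPM in OGT KO and 34.7 in control trunk/ductal-like cells (1.82, 1.12 to 3.14), and at 47.5 and 30.04 in leukocyte-like cells (1.58, 1.06 to 2.29), where mt- transcripts were lower in OGT KO. Lrpprc, which stabilises mt- messages, stood at 595 CPM in OGT KO and 328 in control endocrine-like cells (1.81, 1.40 to 2.39).

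Cytochrome c (Cycs), the carrier between complexes III and IV, and cytochrome c1 (Cyc1), a catalytic subunit of complex III, have names that the patterns leave out. They stood at 299 and 307 CPM in OGT KO trunk/ductal-like cells, against 190 and 201 in control. In acinar-like cells Cycs stood at 413 CPM in OGT KO and 427 in control, and Cyc1 at 357 and 358. Of 18 genes of the citric acid cycle and pyruvate dehydrogenase, which feed the chain with NADH and succinate, at most 1 was past 1.5-fold in either direction in acinar-like, trunk/ductal-like and leukocyte-like cells. In endocrine-like cells 2 of 10 measured were higher, Mdh2 (1.54, 1.16 to 2.08) and Suclg1 (1.52, 0.989 to 2.43), beside 20.3% of all genes. Among the regulators of these genes, 1 of 7 measured was past 1.5-fold in acinar-like cells, Hcfc1 at 1.57 (1.01 to 2.53), and 0 of 5 in trunk/ductal-like cells. In endocrine-like cells 1 of 2 was higher and in leukocyte-like cells 2 of 8 were lower. Ucp2, an inner membrane carrier listed with the antioxidant genes, was the single gene of 9 past 1.5-fold in acinar-like cells, at 69.0 CPM in OGT KO and 114 in control (0.607).

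Over all barcodes the nuclear members summed to 35011 CPM in OGT KO and 28880 in control (1.21), and the mt- members to 37789 and 32721 (1.15). Of the 89 members 9 were at least 1.5-fold higher, against 35.1% of all genes, and 0 lower, against 18.5%. The median log2 ratio was 0.27 over the nuclear members and 0.28 over all genes. The pooled nuclear ratio exceeded the acinar-like, trunk/ductal-like and leukocyte-like ratios, beside libraries whose largest classes were mesenchyme-like cells in OGT KO and leukocyte-like cells in control.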

How the data were processed

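Per the submitters' processing notes, Cell Ranger 2.0.0, Seurat 2.0 and DESeq2 1.14.1 were used with mm10, and their roles are not given. The authors deposited 1 table of whole-number UMI counts per gene and barcode for each genotype, not normalized, in which the 2 sequencing runs of a library are joined. Depth was 11064540 UMIs in OGT KO and 11973979 in control, which sets the width of the counting intervals. UMIs are counted molecules, but cells of 1 library are not replicates.

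Ensembl identifiers were matched to symbols (27645 matched, 353 did not), with coordinates from GENCODE M21. Without the 89 genes, barcodes were clustered with scanpy 1.11.5 and leidenalg 0.10.2 (Python 3.11.15) on 2000 variable genes, 30 components and 15 neighbours at Leiden resolution 1. A cluster was named from the marker list with the highest mean scaled level, with at least 5 detected markers, own markers among its top genes and no more of another type. This naming rule was settled after the clusters had been seen. All barcodes were kept, and Scrublet marked 6 OGT KO and 6 control barcodes as doublets. Under the filters stated, no barcode had fewer than 500 genes.

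UMIs were summed over each class with at least 15 cells in a library and divided by the class total. Intervals are exact Poisson for levels, exact conditional for ratios and exact binomial for shares (SciPy 1.17.1, 95%). Gene ratios were counted at 1.5-fold among genes with at least 50 UMIs over both libraries. The calculations were tested on simulated data. Alternative scalings used edgeR 4.0.16 and DESeq2 1.42.0 in R 4.3.3.

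The members, the pathway lists and the marker lists were chosen with earlier results of these data known. Genes named are Ogt, the mt- genes, the 2 highest genes of each complex, the 5 highest and 5 lowest ratios in each class, the 6 nuclear genes with the widest range over OGT KO classes, and the paralogs and isoforms given. Other genes, and the promoters shown, were picked after their values were seen. Pseudogenes named after Atp5c1, Atp5k, Atp5l and Uqcrh are annotated, and how reads shared with copies were counted is not given in the sources used here.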

Additional observations from a re-analysis of the deposited data

Results flagged for a closer look

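The ratio of OGT KO over control for the 13 mt- genes ran in opposite directions between cell classes. It was 0.957 in acinar-like, 1.20 in trunk/ductal-like, 1.19 in endocrine-like and 0.750 in leukocyte-like cells. With 1 library of each genotype the difference between classes was not tested. The acinar-like ratio was above 1 without the 5 highest cells of each library and the trunk/ductal-like ratio was below 1 when doublets were removed and cells clustered again, where the class held 42 OGT KO cells instead of 97 and 1 of the 97 had been a marked doublet, whereas the endocrine-like and leukocyte-like ratios kept their direction under all alternatives run.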

How the results depend on the processing

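The nuclear ratio was above 1 in all 4 classes under every alternative run, at 1.05 to 1.12 in acinar-like, 1.07 to 1.15 in trunk/ductal-like, 1.15 to 1.35 in endocrine-like and 1.05 to 1.23 in leukocyte-like cells. The median cell was deeper in OGT KO in all 4 classes. It held 27543 UMIs in OGT KO and 17924 in control acinar-like cells, and 18332 and 12209 in trunk/ductal-like cells. It held 16602 and 8026 in endocrine-like cells, and 12784 and 10318 in leukocyte-like cells. Within each of these classes and libraries the nuclear share rose with a cell's UMIs (rank correlation 0.19 to 0.56). The part of depth in the nuclear ratios was not tested. The mt- ratio was below 1 throughout in leukocyte-like cells (0.676 to 0.812) and above 1 throughout in endocrine-like cells (1.10 to 1.29). It changed direction in acinar-like cells, to 1.01 without the 5 highest cells of each library, and in trunk/ductal-like cells, to 0.931 with doublets removed and cells clustered again, where the class held 42 OGT KO cells. The part of each step was not separated, and the cause was not tested.

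Values below are nuclear, then mt-. With TMM scaling the ratios were 1.06 and 0.946 in acinar-like, 1.15 and 1.23 in trunk/ductal-like, 1.35 and 1.29 in endocrine-like, and 1.05 and 0.676 in leukocyte-like cells. With median-of-ratios scaling they were 1.15 and 1.23 in trunk/ductal-like, 1.35 and 1.29 in endocrine-like, and 1.06 and 0.680 in leukocyte-like cells. With the barcode filter and cells clustered again, the mt- ratio was 0.999 in acinar-like and 1.16 in endocrine-like cells, and the pairs were 1.07 and 1.01 in trunk/ductal-like and 1.20 and 0.728 in leukocyte-like cells. With doublets removed and cells clustered again the nuclear ratio was 1.08 in trunk/ductal-like cells and the pair was 1.13 and 0.720 in leukocyte-like cells. With each library clustered alone, the mt- ratio was 0.941 in acinar-like cells, the nuclear ratio was 1.15 in endocrine-like cells (44 OGT KO and 68 control cells), and the pair was 1.137 and 0.800 in leukocyte-like cells; no control cells were then named trunk/ductal-like. Resolution 2 gave mt- ratios of 1.10 in endocrine-like and 0.727 in leukocyte-like cells. Without the 5 highest cells the pairs were 1.144 and 1.29 in trunk/ductal-like and 1.29 and 1.27 in endocrine-like cells, and the nuclear ratio was 1.13 in leukocyte-like cells. The mean of the cells' own levels gave 1.12 and 0.854 in acinar-like and 1.15 and 0.715 in leukocyte-like cells. A total without enzyme and hormone genes gave 1.05 and 0.940 in acinar-like cells.

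Of the alternatives chosen after seeing the data, leaving out barcodes over 10% mt- gave mt- ratios of 0.984 in acinar-like and 1.15 in endocrine-like cells. Without the 4 OGT KO barcodes of cluster 14 the acinar-like mt- ratio was 0.912. With cluster 12 joined, the trunk/ductal-like pair was 1.10 and 1.46. Within cluster 2 alone the leukocyte-like pair was 1.23 and 0.812.

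Counts of members at least 1.5-fold apart were 1 in acinar-like cells with a minimum of 1 UMI in each library, 2 in trunk/ductal-like cells with the barcode filter and 2 with doublets removed, and 7 in endocrine-like and 3 in leukocyte-like cells with each library clustered alone. Leukocyte-like cells had 9 with TMM and 9 with median of ratios. At 2-fold the counts were 0 in trunk/ductal-like, 1 in endocrine-like and 2 in leukocyte-like cells. Shares of all genes were not computed for these alternatives. The highest class over the lowest was 1.25 (nuclear, OGT KO), 1.77 (mt-, OGT KO), 1.29 (nuclear, control) and 1.20 (mt-, control) with the members left out of the total, and 1.62 (mt-, OGT KO) and 1.30 (nuclear, control) with the barcode filter.

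No paired analysis was possible because replicate numbers mark sequencing runs of the same library, which the columns do not separate. Depth limits endocrine-like cells of control most, where Ogt rests on 21 UMIs.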
